A study of Ovis aries with 8 samples.

Results

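A set of 40 genes of mitosis, covering entry into mitosis, chromosome structure, the spindle checkpoint, the kinetochore, anaphase and cytokinesis, was followed in fetal sheep islets. A member was the row of the deposited table whose gene name equalled its symbol. Of the 40 members, 35 had such a row, each a single row, among the 25000 rows of the table. CDK1, CCNB1, PTTG1, BUB3 and CENPA matched no row name and are not analysed here.

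The samples were hand-picked pancreatic islets of 8 singleton Columbia-Rambouillet fetuses near term, and RNA abundance was given as FPKM (fragments scaled to transcript length and to the size of the library). Norepinephrine was infused intravenously into 4 fetuses for 7 days, at 1 µg/min on day 1, 2 µg/min on days 2 to 4 and 4 µg/min on days 5 to 7, and the 4 controls received the saline and ascorbic acid diluent. The fetuses were 137 to 139 days of gestation with norepinephrine and 139 or 140 days in controls. Each group held 1 female (control 2 and norepinephrine 3). Fetal weight also ran with treatment, at 2.8 to 3.7 kg with norepinephrine and 3.6 to 5 kg in controls. Control 1 was the heaviest and norepinephrine 3 the lightest. The part of weight in the results below was not tested. The animal numbers in the labels begin with 09 (control 2 and norepinephrine 1, 3 and 4) or 10 (controls 1, 3 and 4 and norepinephrine 2), a split whose meaning the labels do not give.

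Mitosis begins when cyclin-dependent kinases, switched on by cyclins and CDC25 phosphatases, drive chromosome condensation and spindle assembly. The spindle checkpoint then holds the cell until every kinetochore is attached, after which the anaphase-promoting complex, loaded by CDC20 and working with the ubiquitin-conjugating enzyme UBE2C, destroys the cyclins and the brake on sister separation. Most of these transcripts are made late in the cell cycle under FOXM1, B-MYB (encoded by MYBL2) and the MuvB complex, and they are widely used as a sign of dividing cells. In the fetal pancreas, replication of endocrine cells is one way in which islet mass grows before birth.

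The 35 members were lower with norepinephrine almost without exception. The norepinephrine mean was below the control mean in 34 of 35, whereas 45.8% of the 18244 rows above 0 in any animal were lower. Every norepinephrine animal lay below every control in 19 of the 35 members, against 2.02% of those rows, and above every control in 0 of 35, against 1.83%. By ratio of group means, 13 members were more than 2-fold lower, 12 were 1.5 to 2-fold lower, 9 were lower by less than 1.5-fold, and AURKA alone was not lower, although its direction turned with equal library totals (-0.072). The median over the 35 was 1.75-fold, and the median log2 difference was -0.54 on the log2(FPKM + 1) scale, which understates the change of low genes, where the median of all 18244 rows was 0.015.

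No single member passed the test across all genes. In limma on the 13252 rows whose FPKM averaged 1 or more, 0 of 28 tested members had an adjusted p under 0.05, as did 0% of all rows, and the lowest adjusted p of a member was 0.451. At an unadjusted p under 0.05, 18 of the 28 were lower and 0 higher, with 3.74% of all rows lower and 3.61% higher. Of the same 28, 16 had groups that did not overlap, lower with norepinephrine, against 2.35% of rows, and 0 the reverse, against 1.88%. The 7 members FOXM1, CDC25C, BUB1, TTK, CENPE, CENPF and ECT2 had a mean under 1 FPKM, and 3 tested members (MKI67, AURKB and NDC80) had a norepinephrine mean under 1, so that they passed the filter through the controls. With no filter, 24 of all 35 were lower at an unadjusted p under 0.05 and 0 higher, where 3.49% of rows were lower and 3.64% higher, and the lowest adjusted p was 0.357. In bulk tissue, fewer dividing cells and less RNA of these genes per cell cannot be told apart.

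**Figure D1:**
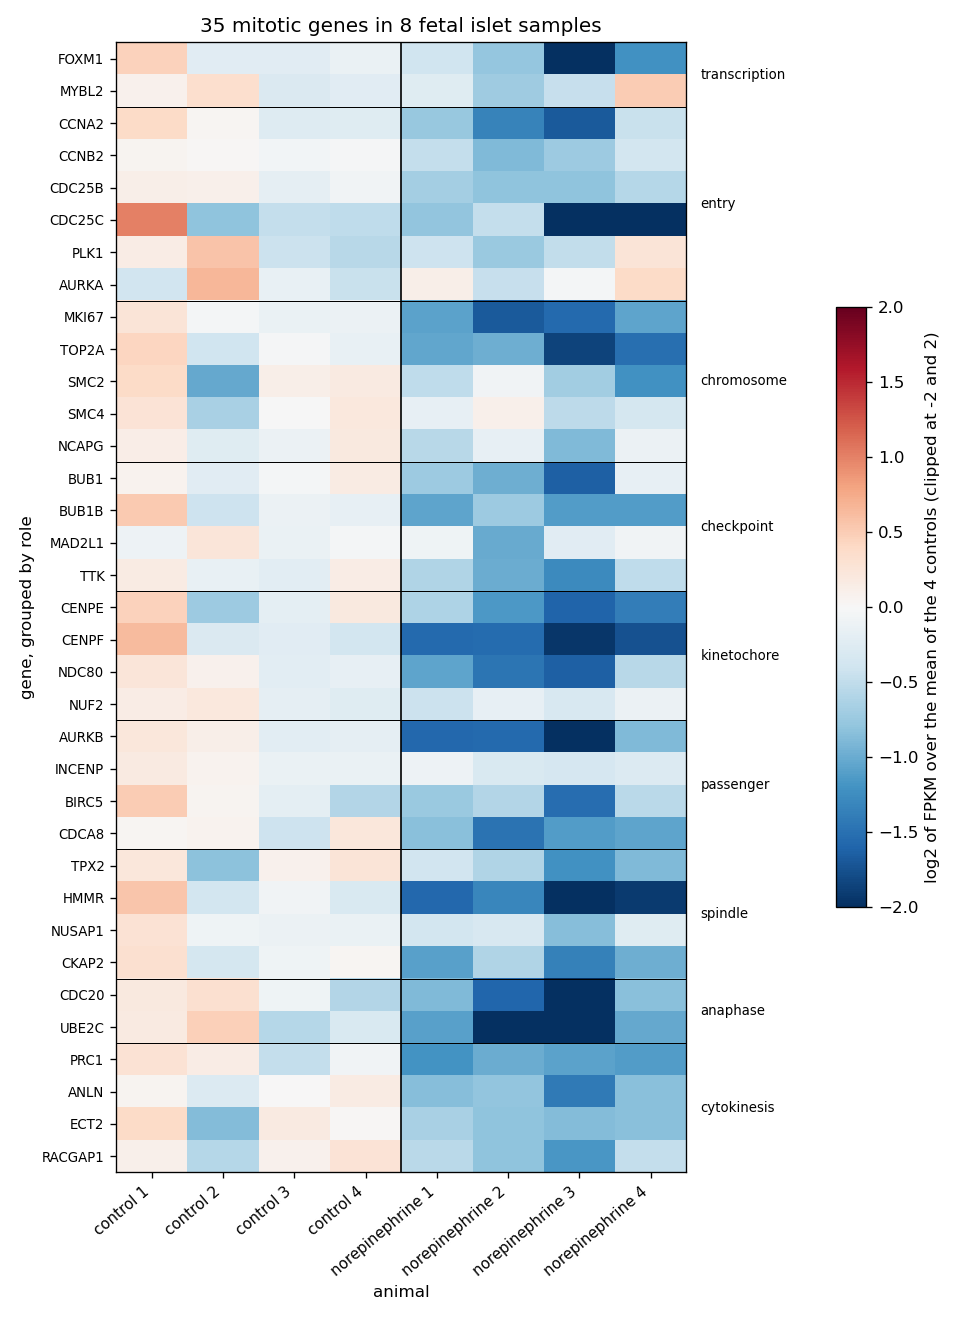
Rows are the 35 members by role and columns the 8 animals, coloured by log2 of FPKM over the mean of the 4 controls. Blue fills most of the norepinephrine side, most deeply in norepinephrine 3 (median 43.3% of the control mean), while AURKA, PLK1, MYBL2 and SMC4 are mixed.

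The animals could be placed by the median of the 35 members, each taken as a percentage of its control mean. The controls stood at 117.2%, 94.0%, 90.8% and 91.5% and the norepinephrine animals at 62.7%, 57.3%, 43.3% and 56.3%, in label order. The groups did not overlap on this measure. Control 1 held the highest value of the 8 animals in 22 members, and norepinephrine 3 the lowest in 22. Norepinephrine 1, 2, 3 and 4 were below every control in 23, 28, 30 and 24 of the 35 members. The share of all rows in which each of these animals lay below every control was not counted.

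Both listed members of anaphase onset had groups that did not overlap, and their median difference was the largest of the role groups. UBE2C (chromosome 13, 74125917 to 74129104, build Oar_v3.1), the enzyme that starts ubiquitin chains for that complex, read 16.4, 20.2, 9.81 and 11.8 FPKM in controls 1 to 4 and 6.87, 3.56, 2.30 and 7.19 in norepinephrine 1 to 4. The lowest control was above the highest norepinephrine animal, and the means were 2.92-fold apart (log2 difference -1.43, SE 0.33, limma unadjusted p = 0.00181, adjusted p = 0.480). CDC20 (chromosome 1, 17815062 to 17818632), the activator that the spindle checkpoint holds back, read 6.90, 7.58, 5.67 and 4.04 in controls and 3.30, 2.01, 1.49 and 3.39 with norepinephrine. Its groups did not overlap either, with a ratio of 2.37 and a log2 difference of -1.001 (SE 0.25, limma unadjusted p = 0.00284, adjusted p = 0.498).

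Of the 4 spindle members, 3 had groups that did not overlap. HMMR (chromosome 5, 72459034 to 72489512), a spindle-binding protein also known as the hyaluronan-mediated motility receptor, had the largest ratio of the 35, 3.58: controls read 7.02, 3.72, 4.55 and 3.87 FPKM and norepinephrine animals 1.62, 1.94, 0.514 and 1.28. The highest norepinephrine value was below the lowest control by 1.91-fold (log2 difference -1.32, SE 0.26, limma unadjusted p = 0.000647, adjusted p = 0.451). CKAP2, a microtubule-associated protein of the spindle, read 6.14, 3.88, 4.62 and 5.08 in controls and 2.31, 3.24, 1.93 and 2.51 with norepinephrine, without overlap (ratio 1.97). NUSAP1, which bundles spindle microtubules near chromosomes, read 3.74, 2.87, 2.81 and 2.79 in controls and 2.36, 2.44, 1.69 and 2.58 with norepinephrine, apart by a narrow gap (limma unadjusted p = 0.101). TPX2, which targets and activates Aurora A on the spindle, overlapped: controls read 8.46, 4.13, 7.74 and 8.71 and norepinephrine animals 5.54, 4.79, 3.14 and 3.95, with control 2 below norepinephrine 1 and 2.

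**Figure D2:**
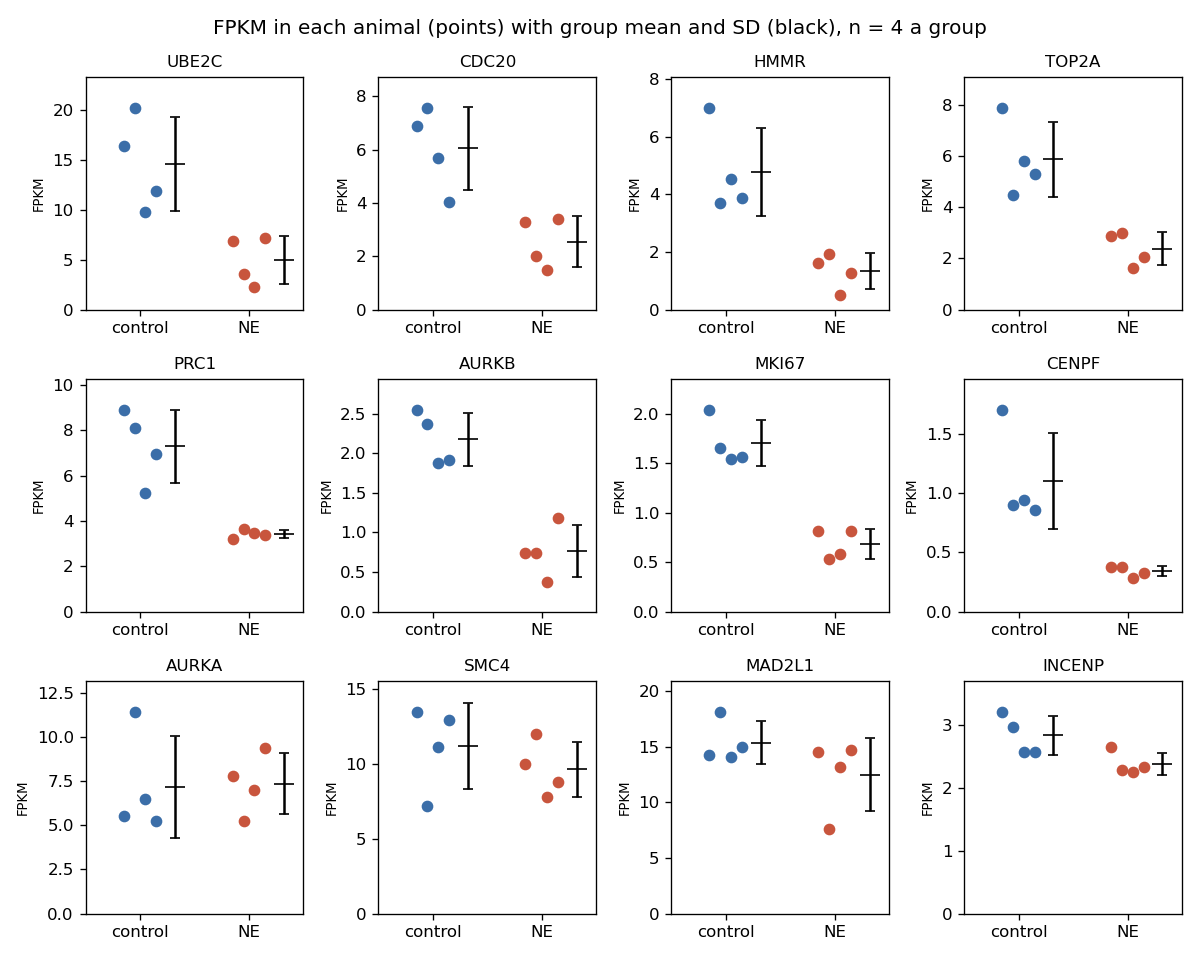
FPKM of 12 members in each animal, with the group mean and SD (n = 4) in black; axes start at 0 and differ between panels. In the upper 8 panels no norepinephrine animal reaches the lowest control, while in the lower 4 (AURKA, SMC4, MAD2L1 and INCENP) the groups overlap.

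Among cytokinesis genes, PRC1 (chromosome 18, 20787184 to 20802103), the crosslinker of the central spindle, was the most even after norepinephrine. It read 3.20, 3.66, 3.48 and 3.36 FPKM there (SD 0.197) and 8.92, 8.11, 5.22 and 6.95 in controls (SD 1.604). The groups did not overlap and differed 2.13-fold (log2 difference -0.89, SE 0.18, limma unadjusted p = 0.000623, adjusted p = 0.451). ANLN, the scaffold of the contractile ring, read 2.96, 2.34, 2.86 and 3.19 in controls and 1.57, 1.64, 1.06 and 1.58 with norepinephrine, again apart (ratio 1.94). RACGAP1, the GTPase-activating subunit of centralspindlin, and ECT2, the exchange factor it recruits, overlapped between groups through control 2. RACGAP1 read 6.59, 4.14, 6.52 and 7.43 in controls and 4.23, 3.55, 2.76 and 4.43 with norepinephrine. ECT2 read 1.40, 0.588, 1.22 and 1.09 against 0.689, 0.616, 0.592 and 0.605. In both, the other 3 controls were above all 4 norepinephrine animals.

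The chromosomal passenger complex corrects wrong attachments and guides cytokinesis, and its 4 subunits had ratios from 1.19 to 2.86. AURKB (chromosome 11, 27395741 to 27400878), its kinase, read 2.55, 2.37, 1.88 and 1.92 FPKM in controls and 0.734, 0.744, 0.379 and 1.18 with norepinephrine. That is a 2.86-fold difference without overlap (log2 difference -0.87, SE 0.20, limma unadjusted p = 0.00185, adjusted p = 0.480). CDCA8, which encodes borealin, read 2.31, 2.34, 1.68 and 2.63 against 1.25, 0.808, 1.03 and 1.08 and did not overlap (ratio 2.15). BIRC5, which encodes survivin, read 9.63, 7.00, 5.87 and 4.52 against 4.03, 4.49, 2.35 and 4.67 and overlapped only where control 4 was below norepinephrine 4. INCENP, the scaffold that holds the other 3, differed least of the complex, at 2.84 ± 0.316 FPKM in controls and 2.39 ± 0.181 with norepinephrine (SD, n = 4 each; ratio 1.19, limma unadjusted p = 0.270).

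Of the 5 chromosome members, 2 had groups that did not overlap. MKI67 (chromosome 22, 46439179 to 46468099), which encodes the Ki-67 coat of mitotic chromosomes, read 2.04, 1.65, 1.54 and 1.56 FPKM in controls and 0.811, 0.529, 0.578 and 0.819 with norepinephrine. The lowest control was 1.89-fold above the highest norepinephrine animal. TOP2A, the topoisomerase that untangles sister chromatids, read 7.91, 4.47, 5.81 and 5.33 against 2.86, 2.99, 1.63 and 2.08, without overlap (ratio 2.46). It shares its listed locus with RARA, so its share of the reads there is uncertain.

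The condensin genes stood otherwise. SMC2 read 14.3, 5.38, 11.9 and 12.4 FPKM in controls and 7.69, 10.5, 6.78 and 4.74 with norepinephrine, and SMC4 read 13.5, 7.14, 11.1 and 12.9 against 9.96, 11.96, 7.75 and 8.76. Both encode the ATPase arms of condensin, and in both the values parted by animal number, with every animal numbered 10 above every animal numbered 09, and not by treatment. Such a split was seen for 8.07% of rows and for 3 of the 35 members (these and CDC25C), a similar share. NCAPG, a regulatory subunit of condensin I, stood at 7.14 ± 1.01 in controls and 5.42 ± 1.28 with norepinephrine (SD, n = 4 each) and overlapped in 2 norepinephrine animals (limma unadjusted p = 0.0869).

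Entry into mitosis gave 3 members without overlap and 3 with. CCNA2, encoding cyclin A2, read 6.91, 5.48, 4.44 and 4.49 FPKM in controls and 3.15, 2.12, 1.66 and 3.90 with norepinephrine (ratio 1.97, limma unadjusted p = 0.00716). CCNB2, encoding cyclin B2, was the tightest of the members in controls, at 6.58, 6.43, 6.08 and 6.19, and read 4.54, 3.42, 3.80 and 4.90 with norepinephrine (ratio 1.52, limma unadjusted p = 0.00706). CDC25B, a phosphatase that starts cyclin-dependent kinase activation, read 5.75, 5.69, 4.67 and 5.05 against 3.31, 3.03, 3.04 and 3.55 (ratio 1.64, limma unadjusted p = 0.00315). In each of these 3 genes all 4 norepinephrine animals were below all 4 controls.

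The mitotic kinases of this group did not separate. AURKA, the centrosomal Aurora A kinase, read 5.53, 11.4, 6.51 and 5.25 FPKM in controls and 7.79, 5.22, 6.98 and 9.36 with norepinephrine (log2 difference 0.06, SE 0.25, limma unadjusted p = 0.813). Its 4 animals numbered 09 were all above the 4 numbered 10, as in 11.6% of rows, and with the number prefix in the model its difference was -0.29. PLK1, the polo-like kinase, read 4.50, 6.03, 3.02 and 2.77 in controls and 3.07, 2.43, 2.90 and 4.90 with norepinephrine, with control 2 and norepinephrine 4 high (limma unadjusted p = 0.416). CDC25C stood at 0.537 ± 0.361 and 0.216 ± 0.155 (SD, n = 4 each), a control mean carried by control 1 at 1.08, since the other 3 controls (0.307 to 0.387) lay among norepinephrine 1 and 2 (0.309 and 0.385).

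Of the spindle checkpoint, BUB1B, which encodes the inhibitor BUBR1, read 3.19, 1.66, 2.06 and 1.99 FPKM in controls and 1.07, 1.34, 1.02 and 1.03 with norepinephrine, without overlap (ratio 1.99, limma unadjusted p = 0.0140). The kinases that start the signal were scarce. TTK, encoding MPS1, read 0.830, 0.662, 0.636 and 0.820 in controls and 0.488, 0.371, 0.306 and 0.516 with norepinephrine, also apart. BUB1 read 0.825, 0.672, 0.765 and 0.881 against 0.474, 0.398, 0.253 and 0.705, overlapping through norepinephrine 4. MAD2L1, encoding the checkpoint protein MAD2, was the most abundant of the 35 and overlapped, at 14.3, 18.2, 14.1 and 14.98 in controls and 14.5, 7.646, 13.2 and 14.7 with norepinephrine. The 1 low animal was norepinephrine 2, and the log2 difference was -0.31 with it and -0.11 without it.

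Kinetochore members were of low abundance, and the large outer proteins differed more than NUF2. CENPF (chromosome 12, 67064453 to 67123889), a fibrous kinetochore protein of late G2 and mitosis, read 1.70, 0.895, 0.943 and 0.853 FPKM in controls and 0.374, 0.379, 0.286 and 0.329 with norepinephrine. Its ratio of 3.21 was second to HMMR, and the lowest control was 2.25-fold above the highest norepinephrine animal, the widest such gap of the 35 (limma without the filter, unadjusted p = 0.000902, adjusted p = 0.431). CENPE, the kinetochore motor, read 1.17, 0.513, 0.743 and 0.975 against 0.556, 0.384, 0.281 and 0.327, and overlapped where control 2 was below norepinephrine 1 (ratio 2.20).

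NDC80 and NUF2 are partners in the complex that grips microtubules, and their transcripts had unlike ratios. NDC80 read 1.61, 1.46, 1.18 and 1.23 FPKM in controls and 0.660, 0.495, 0.444 and 0.936 with norepinephrine, without overlap (ratio 2.16, limma unadjusted p = 0.0176). NUF2 read 4.99, 5.19, 3.97 and 3.77 against 3.32, 4.01, 3.59 and 4.14, with overlap (ratio 1.19, limma unadjusted p = 0.251). The difference between these 2 responses was not tested.

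The 2 transcription factors of the set also stood apart from each other. FOXM1, the forkhead activator of late cell-cycle genes, read 1.64, 1.02, 1.02 and 1.08 FPKM in controls and 0.904, 0.696, 0.226 and 0.516 with norepinephrine, without overlap (ratio 2.03, limma without the filter, unadjusted p = 0.0145). MYBL2, which encodes B-MYB, read 3.11, 3.73, 2.41 and 2.52 against 2.48, 1.79, 2.14 and 4.17, and its highest value was in norepinephrine 4. FOXM1 shares its locus with 5 other rows, and reads of overlapping genes could not be told apart.

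**Figure D3:**
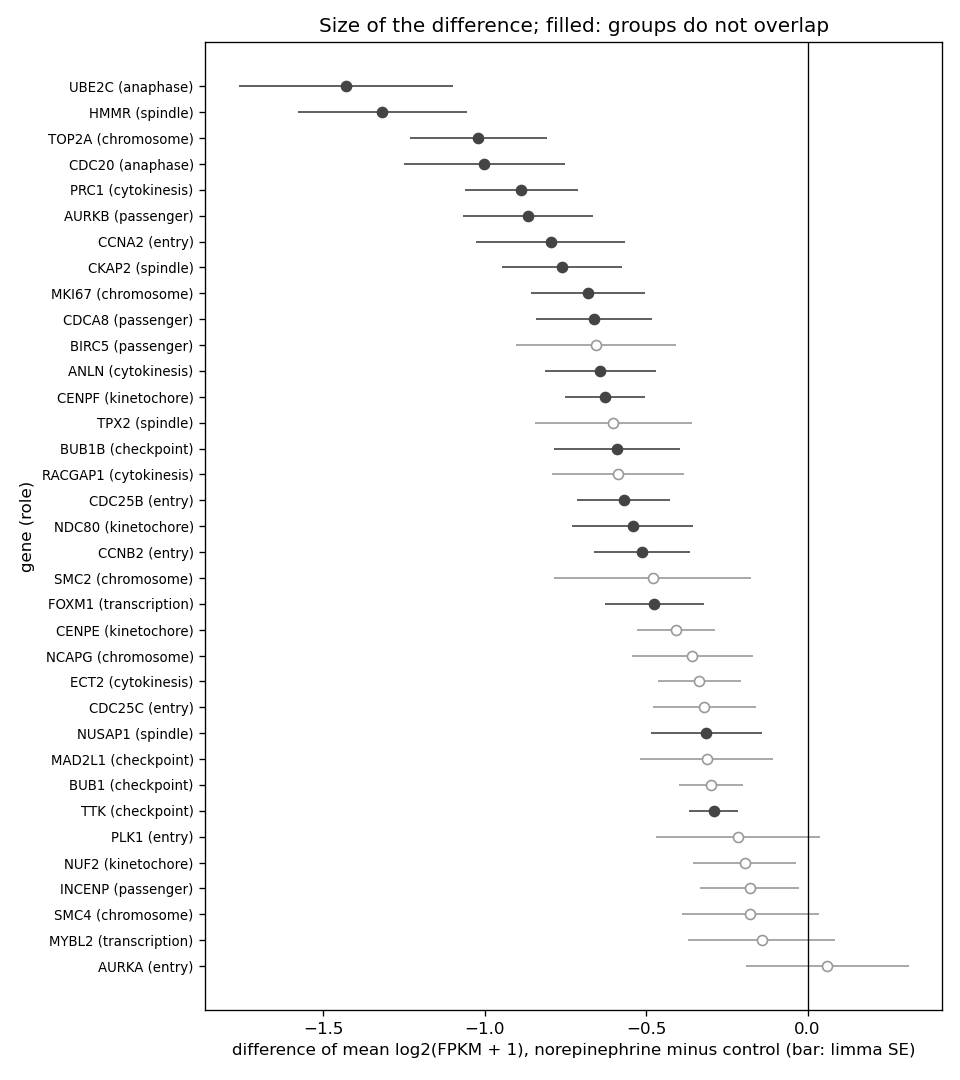
Difference of mean log2(FPKM + 1) for the 35 members, norepinephrine minus control, with limma's SE (from the fit without a filter for the 7 members under 1 FPKM). Filled points are the 19 members whose groups do not overlap; UBE2C (-1.43) and HMMR (-1.32) are the lowest, and AURKA (0.06, or -0.072 with equal library totals) is the 1 member above 0.

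By role, the median log2 difference was -1.22 for the 2 anaphase members, -0.68 for the 4 spindle members, -0.66 for the 4 passenger subunits and -0.61 for the 4 cytokinesis members. It was -0.48 for the 5 chromosome members, -0.47 for the 4 kinetochore members, -0.42 for the 6 entry members and -0.31 both for the 4 checkpoint members and for the 2 transcription factors. By median ratio of means the order differed, with 1.74 for checkpoint and 2.18 for kinetochore members, against 1.58 for entry and 1.48 for chromosome members. Several checkpoint and kinetochore members were of low abundance, where the log2(FPKM + 1) scale understates a change. MAD2L1, the most abundant member, also had a small difference (ratio 1.23, log2 difference -0.31). Every role group had at least 1 member without overlap. Anaphase was the 1 group in which each listed member was apart (2 of 2), followed by spindle (3 of 4). Differences between role groups were not tested. The chromosome median was -0.22 with the number prefix in the model and -0.31 without control 1 and norepinephrine 3. The anaphase median was -1.95 with gestational age in the model. Over the tested members, the spindle, cytokinesis and entry medians were -0.68, -0.64 and -0.51. They were -0.46, -0.54 and -0.59 with the number prefix, and -0.53, -0.65 and -0.74 with gestational age. The order of these role groups thus depended on the model.

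Other rows share the listed locus of 7 members (FOXM1, PLK1, TOP2A, SMC4, NCAPG, BUB1 and NUSAP1). Among the 28 members alone at their locus, 27 were lower, against 45.8% of the 18244 rows above 0 in any animal. Of the 28, 16 had groups that did not overlap, against 2.02% of those rows, and the median ratio was 1.95. The shares among all rows alone at their locus were not counted.

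Other genes of mitosis, 97 in a list drawn from textbook knowledge, had 80 rows. Of these 80, 56 were lower and 24 higher, 16 had every norepinephrine animal below every control (2.02% of all rows) and 0 had the reverse. At an unadjusted p under 0.05 without the filter, 18 were lower (3.49% of all rows) and 0 higher (limma; 0 at an adjusted p under 0.05). The share was uneven between classes. Genes of the spindle and cytokinesis outside the members were lower in 9 of 9, and 7 of the 9 did not overlap. Among them, ASPM, the spindle pole protein of microcephaly, stood at 0.546 ± 0.218 FPKM in controls and 0.162 ± 0.0695 with norepinephrine. CEP55, which recruits the abscission machinery to the midbody, stood at 1.16 ± 0.279 and 0.404 ± 0.168, and CDCA3 at 3.55 ± 0.665 and 1.86 ± 0.347 (SD, n = 4 in each case). The other 4 without overlap were CDCA2, which brings a phosphatase to chromosomes (0.819 and 0.254), CIT, the citron kinase of the midbody (0.721 and 0.315), DLGAP5, a stabiliser of kinetochore microtubules (1.19 and 0.515), and PIMREG (1.29 and 0.385).

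Further genes without overlap came from several steps of division. NEK2, a centrosome kinase, stood at 3.07 ± 0.988 FPKM in controls and 1.28 ± 0.496 with norepinephrine, MASTL, the Greatwall kinase, at 1.35 ± 0.246 and 0.683 ± 0.258, and ESPL1, the protease separase that cuts cohesin, at 1.20 ± 0.294 and 0.447 ± 0.144. HJURP, the chaperone that loads CENP-A at centromeres, stood at 1.21 ± 0.418 and 0.558 ± 0.210. CKS2, a small subunit of cyclin-dependent kinases and far more abundant, stood at 33.8 ± 1.37 and 26.8 ± 2.34, a ratio of 1.26 with no overlap (SD, n = 4 in each case). ENSA, whose product Greatwall phosphorylates, stood at 301.2 and 236.2, and CENPP, of the inner kinetochore, at 2.55 and 1.62, neither with overlap.

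The remaining classes differed in how many genes were lower. The subunits and regulators of the anaphase-promoting complex were lower in 7 of 14 and higher in 7, with a median log2 difference of 0.0073 and 0 of 14 without overlap. UBE2S, the enzyme that extends ubiquitin chains after UBE2C has begun them, stood at 150.2 FPKM in controls and 160.7 with norepinephrine, and the subunit ANAPC11 at 105.8 and 105.4. The DREAM and MuvB genes, which repress or activate the members' promoters, had 0 of 6 without overlap and a median of 0.0075, with the histone-binding protein RBBP4 at 66.4 and 74.1 and the repressor E2F4 at 60.3 and 65.6. Cohesin and its regulators were lower in 9 of 10, by a median of -0.099, with ESPL1 the 1 gene apart. That direction turned within the animal number groups described next, where 2 of 10 (09) and 3 of 10 (10) were lower, with medians of 0.24 and 0.10.

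Kinetochore and condensin genes outside the members were mixed. Inner kinetochore genes were lower in 10 of 13, with a median of -0.22 and 2 without overlap, and outer kinetochore genes in 6 of 13, with a median of 0.010 and 1 without overlap. Among the outer genes, ZW10, which helps bring dynein to kinetochores, stood at 20.4 FPKM in controls and 16.0 with norepinephrine, and SKA2 at 9.45 and 11.5. The other condensin subunits were lower in 4 of 4, with a median of -0.35, and NCAPH, the kleisin of condensin I, was the 1 without overlap (8.96 and 6.80), while NCAPD3 of condensin II stood at 5.58 and 5.15. Entry genes outside the members were lower in 6 of 9, with a median of -0.20 and 4 without overlap. The 2 other checkpoint genes both had lower mean log2 values and overlapped, with the MAD2-binding protein MAD2L1BP at 16.7 and 14.4 and the ATPase TRIP13 at 6.03 and 6.52.

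**Figure D4:**
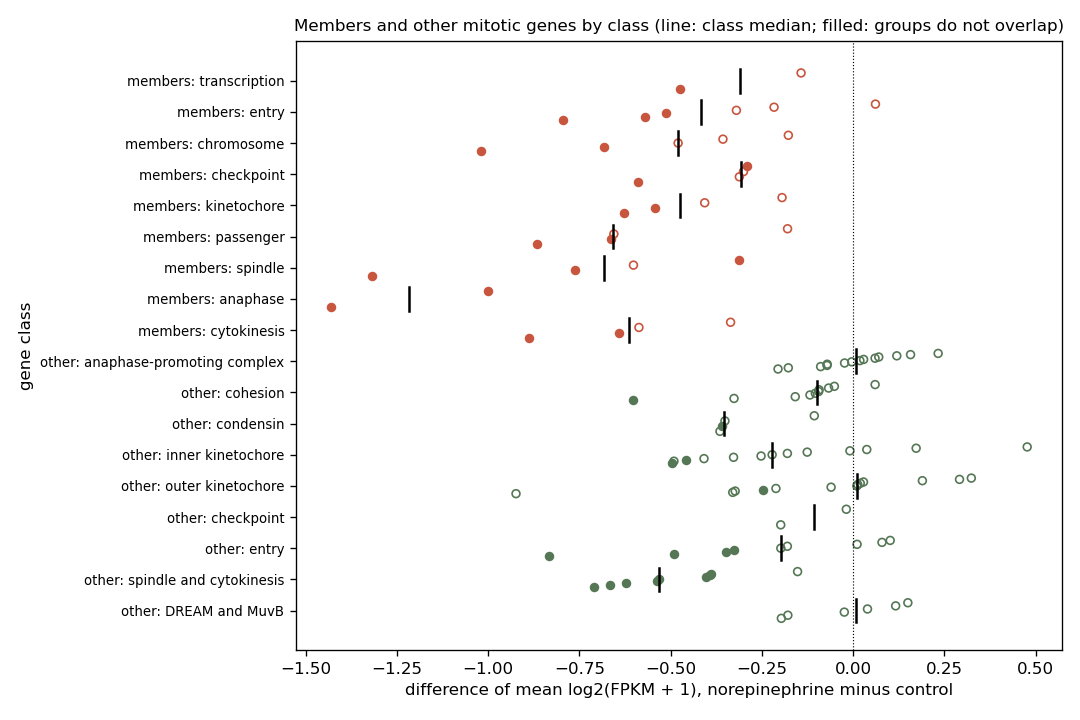
Each point is a gene, placed by its difference of mean log2(FPKM + 1), norepinephrine minus control; red marks the members by role, green the other mitotic genes by class, filled points have groups that do not overlap and vertical lines are class medians. Members lie left of 0 except AURKA (0.06, or -0.072 with equal library totals), while the anaphase-promoting complex (median 0.0073) and the DREAM and MuvB genes (median 0.0075) straddle 0.

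The animal number split the treatment groups unevenly, so the members were also read within each number group. Each such contrast rests on 1 animal on 1 side, and the share of all rows lower in it was not counted. Among animals numbered 10 (norepinephrine 2 against controls 1, 3 and 4), 35 of 35 members were lower, with a median log2 difference of -0.56. Among those numbered 09 (norepinephrine 1, 3 and 4 against control 2), 32 of 35 were lower, with a median of -0.46; SMC2, SMC4 and ECT2 were the 3 exceptions. UBE2C differed by -1.83 in 09 and -1.56 in 10, HMMR by -1.18 and -1.03, and CDC20 by -1.25 and -1.09. TPX2 differed by -0.0035 in 09 and -0.68 in 10, and RACGAP1 by -0.11 and -0.78. With the prefix in the model, 16 of 28 tested members were lower at an unadjusted p under 0.05 (7.14% of rows). BIRC5, RACGAP1 and TPX2 no longer passed, and MAD2L1 was among them (unadjusted p = 0.00260) where it was not without the prefix (0.163).

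**Figure D5:**
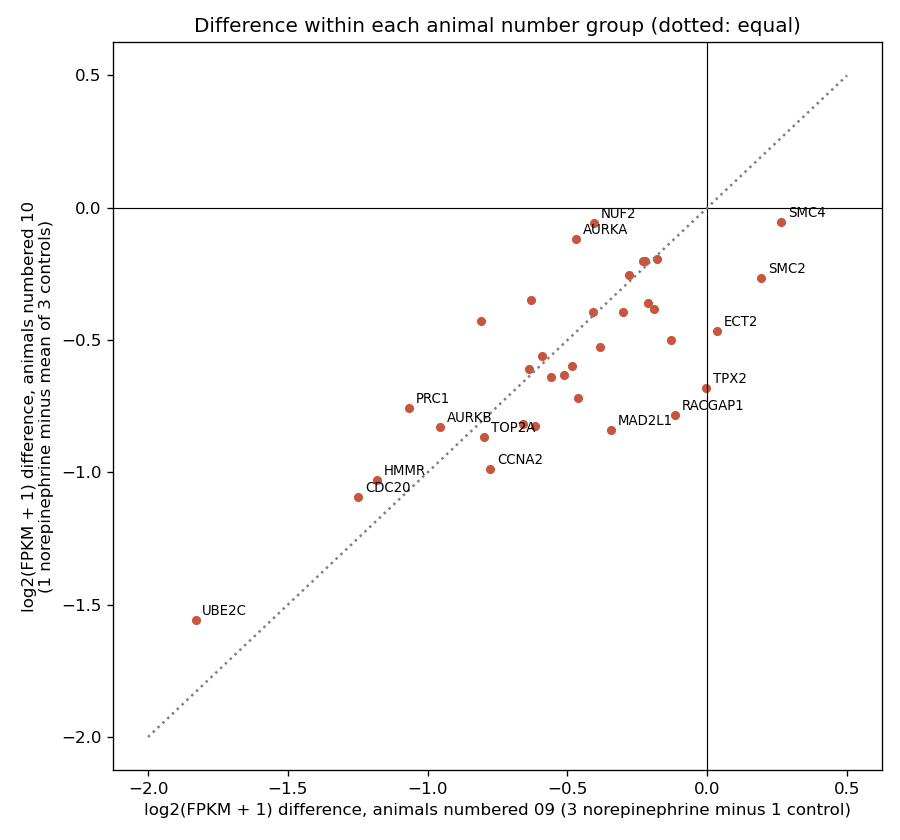
For each of the 35 members, the log2(FPKM + 1) difference among animals numbered 09 (horizontal) and numbered 10 (vertical), with the dotted line marking equal values. All points lie below 0 on the vertical axis, and SMC2, SMC4 and ECT2 lie right of 0 on the horizontal axis.

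Islet markers were abundant, with a summed FPKM of 9 listed genes (GCG, SST, CHGA, SCG5, PCSK1, PDX1, NKX6-1, PAX6 and ISL1) of 7769 to 13240 in controls and 10428 to 16315 with norepinephrine, where 8 of 9 had higher means and 0 were without overlap; INS, PPY and NEUROD1 are not analysed here. Acinar markers had higher means with norepinephrine in 7 of 7 listed, 1 without overlap. Their sum was 83.1 to 131.8 in controls. It was 421.6, 798.9 and 269.7 in norepinephrine 1, 3 and 4, all numbered 09, and 120.5 in norepinephrine 2. Norepinephrine 3 had both the highest acinar sum and the lowest members, and norepinephrine 2 stood below every control in 28 of 35 members. How acinar sums relate to the members was not tested. The sums of 5 duct markers were 102.7 to 191.6 in controls and 163.4 to 432.4 with norepinephrine, of 6 endothelial markers, all 6 with lower means, 100.7 to 141.0 and 69.8 to 139.8, of 7 mesenchymal markers 1962 to 2971 and 1323 to 3684, and of 6 leukocyte markers 107.5 to 159.3 and 118.0 to 179.2. Of 5 neural or glial markers they were 20.8 to 51.6 and 17.5 to 31.4, and 2 erythroid markers, both with lower means and 1 without overlap, stayed under 1 FPKM in every animal. Higher means were seen for 3 of 5 duct, 6 of 7 mesenchymal, 2 of 6 leukocyte and 3 of 5 neural or glial markers. Duct, endothelial, mesenchymal and leukocyte sums overlapped between groups; the part of these cells in the members' difference was not tested.

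Without control 1 and norepinephrine 3, the animals with the highest and lowest members, 12 of 28 tested members were lower at an unadjusted p under 0.05 (2.65% of rows), where 18 were lower with all 8 animals, and 16 of 28 did not overlap (5.4% of rows). The count without overlap cannot fall when animals are left out. BIRC5, BUB1B, CCNA2, NDC80, RACGAP1 and TPX2 were the 6 that no longer passed, with 3 animals in each group. Gestational age ran with treatment, and with age in the model 17 of 28 were lower at an unadjusted p under 0.05 (5.34% of rows), with MAD2L1, MYBL2 and PLK1 gained and BUB1B, CKAP2, RACGAP1 and TPX2 lost. A core of 11 members (ANLN, AURKB, CCNB2, CDC20, CDC25B, CDCA8, HMMR, MKI67, PRC1, TOP2A and UBE2C) was lower at an unadjusted p under 0.05 in all 20 fits that tested all 28. These fits reuse the same animals and are not independent, and the share of all rows passing every one was not counted. Of the core, MKI67 and AURKB had passed the filter through the controls.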

How the data were processed

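The values are FPKM as the authors deposited them, in 1 table of 25000 rows and 8 animal columns without counts. Per the submitters' processing notes, the tools were TopHat2 2.0.1, Cufflinks 2.1.1 and Cuffdiff, on build Oar_v3.1; the sources used here give no filter, annotation or strand setting. Summed FPKM ran from 768021 to 1112624 per animal and parted by number prefix without overlap. It was 1112624 in control 2 and 981583, 1017116 and 1075998 in norepinephrine 1, 3 and 4, which share a prefix. It was 768021, 796139 and 796149 in controls 1, 3 and 4 and 773581 in norepinephrine 2. Library total thus ran with the prefix and in part with treatment. The fits with the prefix and with equal library totals are therefore not independent checks. Steps of 1 fragment in low rows gave a depth relative to control 1 of 1.17 and 1.08 for controls 3 and 4 and of 0.648, 1.01 and 0.726 for norepinephrine 1 to 3; control 2 and norepinephrine 4 showed no clear step, so their depth is unknown and no counting interval is given.

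Columns were matched to animals by number (0 columns left out), and locus starts were raised by 1. The test was limma 3.58.1 in R 4.3.3 (lmFit and eBayes with trend, two-sided, Benjamini-Hochberg over all tested rows, threshold 0.05) on log2(FPKM + 1), tested on simulated data; other sums used Python 3.11.15. Named were all 40 members and, of the other mitotic genes, those with groups apart at an unadjusted p under 0.05 without the filter, else the 2 most abundant of a class. A planned promoter search was not run, as no promoter sequences were used here. Members, lists and roles were chosen with earlier results of these data known. The labels give each animal its own number, so replicates are separate fetuses.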

Additional observations from a re-analysis of the deposited data

Results flagged for a closer look

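In 6 of 70 groups of 4 animals, 1 animal lay far from the other 3 by Dixon's criterion, which chance meets in about 1 of 20 groups. Control 1 was the high animal in 4 of them: FOXM1 at 1.64 FPKM (next control 1.08), CDC25C at 1.08 (next 0.387), CENPF at 1.70 (next 0.943) and NUSAP1 at 3.74 (next 2.87). BUB1B in norepinephrine 2 was high at 1.34 (next 1.07), and ANLN in norepinephrine 3 was low at 1.06 (next 1.57).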

How the results depend on the processing

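The count of tested members lower at an unadjusted p under 0.05 was 18 of 28 and ran from 15 (without norepinephrine 3) to 18 when 1 animal was left out at a time. Over all 13252 rows, 325 (without control 3) to 892 (without control 2) were lower at that threshold in these fits. The count without overlap was 16 of 28 and ran from 16 to 19 when 1 animal was left out. Leaving an animal out cannot lower this count, so the range does not measure stability. The share of all rows without overlap was not counted in these fits. The median log2 difference of the tested members was -0.59 and ran from -0.66 to -0.49 when 1 animal was left out. When rows averaging under 5 FPKM were left out, 10 members were tested. Of these, 9 were lower, 5 of them at an unadjusted p under 0.05, and 3 were without overlap. Of all 10277 rows averaging 5 FPKM or more, 386 were lower at an unadjusted p under 0.05. The shares of those rows lower at any p, and without overlap, were not counted. With a pseudocount of 0.1 the median was -0.74. Without control 1 and norepinephrine 3, chosen after seeing the data, it was -0.44. No member passed an adjusted p under 0.05, and 0 were higher at an unadjusted p under 0.05, in any of the 20 alternatives. Replicate numbers belong to different fetuses and do not pair them: same-numbered animals had correlations of deviations of -0.156, -0.381, -0.034 and 0.093. With a replicate block, 16 of 28 members were lower at an unadjusted p under 0.05, as were 326 of all 13252 rows. In that fit 0 members passed an adjusted p under 0.05. The count without overlap (16) uses no model. The median (-0.59) is that of the main fit by design, as each block held 1 animal of each group. The sign turned for 3 members. AURKA was at -0.072 with equal library totals, -0.29 with the number prefix, -0.56 with gestational age, -0.015 without control 1 and norepinephrine 3, and between -0.051 (without norepinephrine 4) and 0.28 (without control 2) when 1 animal was left out. SMC2 was at 0.28 with gestational age, and SMC4 at 0.11 with the number prefix, 0.12 with gestational age and 0.0050 without control 1 and norepinephrine 3; the cause was not tested.

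Equal library totals moved the median of all rows from 0.017 to -0.12. The rows lower and higher at an unadjusted p under 0.05 went from 496 and 479 to 810 and 233. At that threshold 18 members were lower, with TPX2 lost and MAD2L1 gained. Of the 28 members, 13 were without overlap, and the share of all rows without overlap was not counted in that fit. The number of animals and the low abundance of many members limit what can be resolved; with no counts, the counting error of members under 1 FPKM is unknown.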
